A study of Mus musculus with 2 samples.

Results

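Vomeronasal receptor genes are described here in total RNA of the mouse olfactory bulb. The members were the genes whose name on the array was Vmn1r or Vmn2r followed by a number. They came to 259 of 37074 gene names, measured with 282 of 56605 probes. Of these, 165 genes (170 probes) belonged to the V1R family and 94 genes (112 probes) to the V2R family. The rule that picks them reads gene names.

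The control group was 1 mouse kept under standard odor conditions, and the other group was 1 mouse kept under odor enriched conditions. RNA from each bulb was labelled with Cy3 and hybridized to 1 array of 60-base probes. The sources used here do not give the strain, sex, age, odors or length of exposure. The labels speak of neurons of the bulb in 1 field and of the bulb as the source in another, and name no sorting step, so the RNA was taken as that of whole tissue. With 1 array per group there was no replicate, no test between the groups and no spread between mice, and precision is limited by this number of arrays.

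V1R and V2R genes encode the pheromone receptors of the vomeronasal organ, a separate chemosensory organ at the base of the nasal cavity. V1R receptors are made by apical sensory neurons that signal through Gnai2, and V2R receptors, which carry a large extracellular domain, by basal neurons that signal through Gnao1. The axons of both reach the accessory olfactory bulb, which lies behind and above the main bulb. Both families sit in clusters of closely related copies, so a probe can match more than 1 gene.

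A probe was counted as detected where the scanner software marked its signal as well above background. Levels are given as log2 of the processed signal, which is background-subtracted fluorescence. Where a spot was not significantly above background, its processed signal lay near its own error, as for Vmn1r5 in the control (0.986, error 0.989). Such values mark the floor and not a measured level. The level of 1 probe cannot be ranked against that of another, because each probe binds with its own strength. Differences are odor enriched minus control, after the 75th percentile of each array was subtracted (7.97 log2 units on the control array, 7.65 on the odor enriched one). A difference counted as higher or lower from 2-fold on. It was computed again under 12 alternative settings, of which 7 change the scaling, the background correction or the source of the values and the others mainly the choice of spots and probes. Among the 7 is normexp background correction, which adds an offset of 50. It made the largest differences of dim member probes smaller and turned some negative ones positive. Another is scaling on the E1A spike-in control probes, which moved the median of all genes to -1.91.

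The probes that carry most of the results below are printed 5′ to 3′ as the files list them, with their positions on mm9. In the V1R family they are the neighbouring probes of Vmn1r48 (chr6:89972465-89972524, plus strand) and Vmn1r47 (chr6:89972355-89972414, plus strand). Those of Vmn1r185 (chr7:27396405-27396464, minus strand) and Vmn1r197 (chr13:22420557-22420616, plus strand) follow, since both genes were higher in the odor enriched bulb.
Vmn1r48: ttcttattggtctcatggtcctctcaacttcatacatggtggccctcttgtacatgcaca
Vmn1r47: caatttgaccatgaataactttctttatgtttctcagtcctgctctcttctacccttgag
Vmn1r185: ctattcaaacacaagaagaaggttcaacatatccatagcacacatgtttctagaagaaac
Vmn1r197: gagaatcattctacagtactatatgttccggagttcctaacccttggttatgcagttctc

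In the V2R family they are the probes of Vmn2r65 (chr7:92091667-92091726, minus strand), whose signal was bright on both arrays, and of Vmn2r10 (chr5:109424966-109425025, minus strand), which was higher in the odor enriched bulb. The probe of Vmn2r42 (chr7:9942584-9942643, plus strand) was detected in the odor enriched bulb alone.
Vmn2r65: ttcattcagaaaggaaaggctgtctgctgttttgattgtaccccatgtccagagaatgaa
Vmn2r10: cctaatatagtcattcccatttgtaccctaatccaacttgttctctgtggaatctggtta
Vmn2r42: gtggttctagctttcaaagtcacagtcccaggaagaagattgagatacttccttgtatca

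Most vomeronasal receptor genes were not detected in either bulb. Among the 162 V1R genes with a usable spot on both arrays, 31 (19.1%, 95% exact binomial interval 13.4 to 26.0) were detected in the control and 23 (14.2%, 9.22 to 20.5) in the odor enriched bulb. Of the 94 V2R genes, 18 (19.1%, 11.8 to 28.6) were detected in the control and 13 (13.8%, 7.57 to 22.5) in the odor enriched bulb. Over all 36759 genes the shares were 71.8% and 65.6%. The intervals cover counting over genes only and not the spread between mice. In bulk tissue fewer cells of a type and less RNA per cell cannot be told apart.

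Both bulbs showed 22 V1R and 12 V2R genes, against 64.5% of all genes. A further 9 V1R genes (5.56%) and 6 V2R genes (6.38%) were detected in the control alone, beside 7.29% of all genes. Counted over genes detected in the control, these were 9 of 31 V1R and 6 of 18 V2R genes, beside 2681 of 26378 of all genes. In the odor enriched bulb alone there was 1 V1R gene (0.617%) and 1 V2R gene (1.06%), beside 1.18% of all genes. Neither bulb showed 130 V1R genes (80.2%) and 75 V2R genes (79.8%). The odorant receptors (Olfr), the receptors of the main nose, were detected for 380 of 1075 genes (35.3%) in the control bulb and 220 (20.5%) in the odor enriched bulb. Of them 173 (16.1%) were detected in the control alone and 13 (1.21%) in the odor enriched bulb alone. The difference between the families was not tested.

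**Figure D1:**
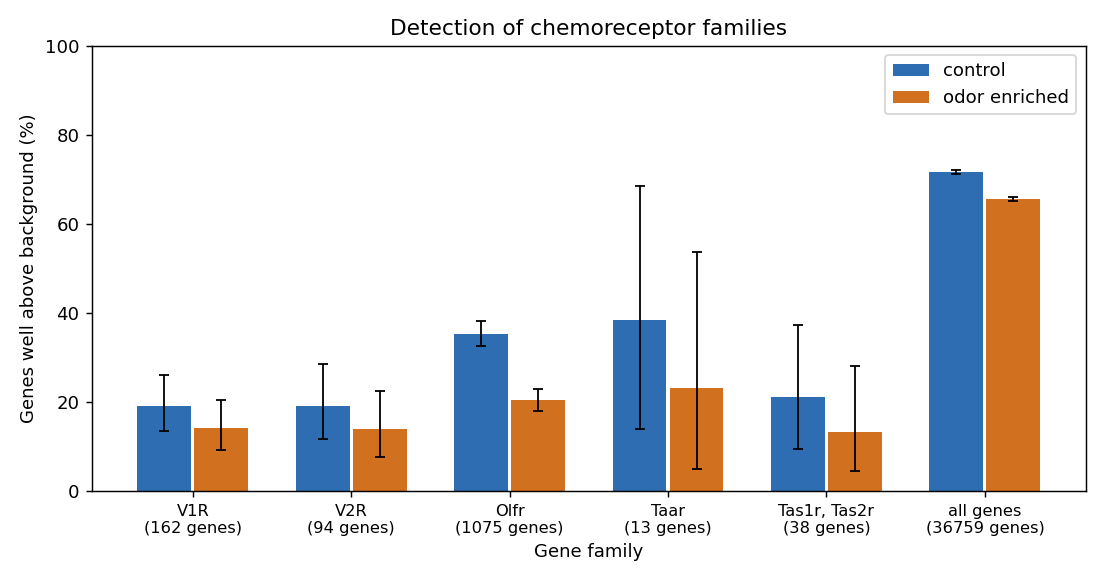
Percent of the genes of each family well above background on the control array (blue) and the odor enriched array (orange), with 95% exact binomial intervals over genes; Taar are trace amine-associated receptors and Tas1r and Tas2r taste receptors. V1R and V2R genes stood at 19.1% in the control, below the 35.3% of odorant receptors and the 71.8% of all genes.

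Most member probes gave signals below the highest of the arrays' negative controls. The 308 negative control spots had a log2 median of -0.01 on the control array and 0.73 on the odor enriched one, and their highest values were 1.82 and 4.15. Of the 282 member probes 74 and 24 lay above these. The software's weaker flag, positive and significant, marked 146 member probes on the control array and 96 on the other, against 7 of the negative control spots on each. The flag used for detection marked 51 and 36 member probes, and 0 and 1 negative control spots. On the odor enriched array some detected probes lay below the highest negative control, among them Vmn1r76 (3.25) and Vmn1r197 (3.86). The Vmn2r10 probe (4.152) lay just below it (4.154). The median V1R probe stood at 0.38 and 0.78, and the median V2R probe at 0.10 and 0.78, where the median of all probes was 4.98 and 4.84. Among undetected probes the medians were 0.05 and 0.74 for V1R and 0.04 and 0.75 for V2R, so the odor enriched array had a higher floor. The lowest signal that counted as detected was 4.85 (control) and 7.97 (odor enriched).

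The detected probes covered a wide range. The 31 V1R probes detected in the control ran from 2.30 to 11.45 with a median of 4.21, and the 23 detected in the odor enriched bulb from 3.25 (Vmn1r76) to 10.11 with a median of 4.92 (log2). The 20 V2R probes detected in the control ran from 2.39 to 9.58 with a median of 3.78, and the 13 in the odor enriched bulb from 3.16 to 10.25 with a median of 4.44. In the control the dimmest detected probes were those of Vmn1r124 (2.30), Vmn1r197 (2.37) and Vmn1r81 (2.40) among V1R, and of Vmn2r33 (2.39), Vmn2r7 (2.53) and Vmn2r10 (2.54) among V2R. Just below detection lay Vmn1r59 at 2.24 and Vmn1r26 at 2.20, and Vmn2r58 at 2.33 and Vmn2r56 at 2.32. Detection therefore separated values that lay close together.

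**Figure D2:**
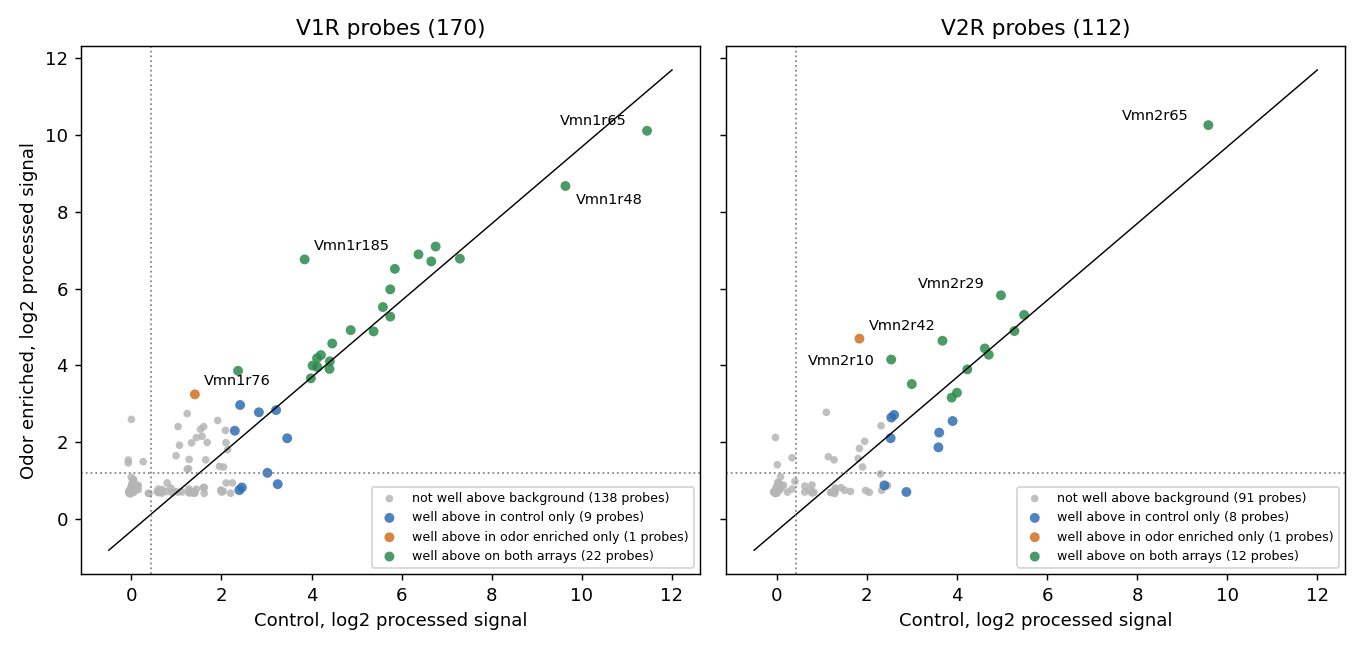
Log2 processed signal of the V1R probes (left) and V2R probes (right) in the control (x axis) and odor enriched bulb (y axis), coloured by the array on which the probe was well above background. The solid line marks equal signal after 75th percentile scaling and the dotted lines the 99th percentile of the negative control spots of each array. Most probes lie at the floor of both arrays, and Vmn1r185 and Vmn2r42 lie well above the line.

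A few V1R probes were bright on both arrays. Vmn1r65, a V1R gene of chromosome 7 (5959355 to 5959414, mm9, minus strand), gave a processed signal of 2791 ± 279 in the control bulb and 1102 ± 110 in the odor enriched bulb, where the error is the one the scanner software assigns to the spot. Its signal was lower in the odor enriched bulb by a difference of -1.03 (2.04-fold), and past 2-fold in 3 of the 7 settings of scaling, background or source values. It did not reach 2-fold with the 75th percentile of detected probes, quantile normalization, cyclic loess or the series matrix values, and the smallest difference was -0.70. This probe starts at base 2619 of its transcript and has a stop codon in every reading frame.

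The probes of Vmn1r48 and Vmn1r47 are neighbours on chromosome 6, starting at bases 583 and 473 of the transcript. Each probe lists the transcripts of both genes, so the genes cannot be told apart by these probes. The Vmn1r48 probe read 795 ± 79.5 in the control bulb and 407 ± 40.7 in the odor enriched bulb, a difference of -0.66. The Vmn1r47 probe, just before it, read 21.1 and 15.0, a difference of -0.18. Both were detected on both arrays and neither difference reached 2-fold. Their signals were far apart although the probes lie side by side, and the cause was not tested.

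The other bright V1R probes stayed within 2-fold. Vmn1r87 read 157 and 110 (-0.20), Vmn1r46 read 108 and 136 (0.65), and Vmn1r70 read 101 and 104 (0.36). Vmn1r217 read 82.9 and 118 (0.83) and Vmn1r195 read 57.6 and 91.2 (0.97), close to the threshold. Vmn1r49, also known as V1rb2 and described as a receptor for a urinary ketone, had log2 signals of 5.58 and 5.52. Like Vmn1r46, Vmn1r47, Vmn1r48 and Vmn1r52 it lies in the chromosome 6 cluster at 89664632 to 90219813, where 5 of 15 genes were detected in each bulb.

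Vmn1r185, a receptor linked to female odor cues, had the largest difference of the members detected in both bulbs. Its signal was 14.4 ± 1.75 in the control bulb and 108 ± 10.95 in the odor enriched bulb. This was 9.34-fold higher (3.22 log2, with an error of 0.23 from the scanner software's spot errors). It was past 2-fold in all 7 settings of scaling, background or source values, with 1.48 after normexp background correction and 1.31 on the spike-in scale.

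Vmn1r197 of the chromosome 13 cluster was also higher in the odor enriched bulb. Its signal was 5.17 ± 1.10 in the control, just above the lowest detected signal, and 14.5 ± 2.21 in the odor enriched bulb. The difference was 1.80 (3.48-fold, error 0.38), but it was 0.51 with normexp and -0.11 on the spike-in scale.

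Among the 22 V1R genes detected in both bulbs the median difference was 0.32, with quartiles of -0.13 and 0.51. They ran from -1.03 to 3.22, with 15 positive and 7 negative. The median was positive under every alternative but spike-in scaling, where it was -1.59. Of the 22, 2 genes (Vmn1r185 and Vmn1r197) were at least 2-fold higher, where 11.5% of 23685 genes detected in both bulbs were, and 1 gene (Vmn1r65) was at least 2-fold lower, beside 5.51% of all. The next lowest differences were those of Vmn1r25 (-0.18), Vmn1r47 (-0.18) and Vmn1r192 (-0.17), after Vmn1r48 and Vmn1r87. Over all those genes the median was 0.002.

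Vmn2r65, a receptor linked to the detection of pups by male mice, was bright on both arrays. It read 766 ± 76.6 in the control bulb and 1219 ± 122 in the odor enriched bulb. The difference of 0.98 (1.98-fold) stayed just below 2-fold, and passed it in 4 of those 7 settings. The other 12 genes of its chromosome 7 cluster (92091667 to 94103648) were not detected in either bulb.

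Vmn2r10, Vmn2r62 and Vmn2r29 were the V2R genes that were higher in the odor enriched bulb. Vmn2r10 went from 5.83 ± 1.22 in the control to 17.8 ± 2.58, a difference of 1.92 (3.79-fold, error 0.37). Vmn2r62 went from 12.8 ± 1.62 to 24.9 ± 2.99, a difference of 1.27 (2.42-fold, error 0.25). Each has a second probe that was not detected on either array. With normexp both differences were 0.53, and on the spike-in scale they were 0.01 and -0.64.

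Vmn2r29 had 3 probes that did not move together. The first read 31.5 ± 3.31 in the control bulb and 56.6 ± 6.0 in the odor enriched bulb, 2.23-fold higher (1.16). The second was detected in the control alone (log2 2.88 and 0.70), and the third was not detected, at 2.46 and 0.87. The difference was past 2-fold in 4 of those 7 settings. It turned to -0.35 when probes detected on either array were averaged, to -0.66 with no filter and to -0.75 on the spike-in scale.

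The other V2R genes detected in both bulbs differed by less than 2-fold. Vmn2r20 read 7.99 and 11.4 (0.83). Vmn2r43 read 14.8 and 8.95 (-0.41) and Vmn2r97 read 16.0 and 9.76 (-0.40). With normexp the differences of Vmn2r43 and Vmn2r97 were 0.15 and 0.18. Vmn2r111 (-0.12), Vmn2r60 (0.13) and Vmn2r88 (-0.07) lay near 0, the last from 38.8 and 29.7. Vmn2r88, another receptor linked to pup cues, has a second probe detected in the control alone (log2 3.59 and 1.87), and with probes detected on either array, or with no filter, its difference was -0.74. Of the 12 genes 3 (25%) were at least 2-fold higher and 0 lower, beside 11.5% and 5.51% of all genes. Their median was 0.13, with quartiles of -0.08 and 1.03, and it was below 0 with median centring, quantile normalization, spike-in scaling or probes detected on either array.

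**Figure D3:**
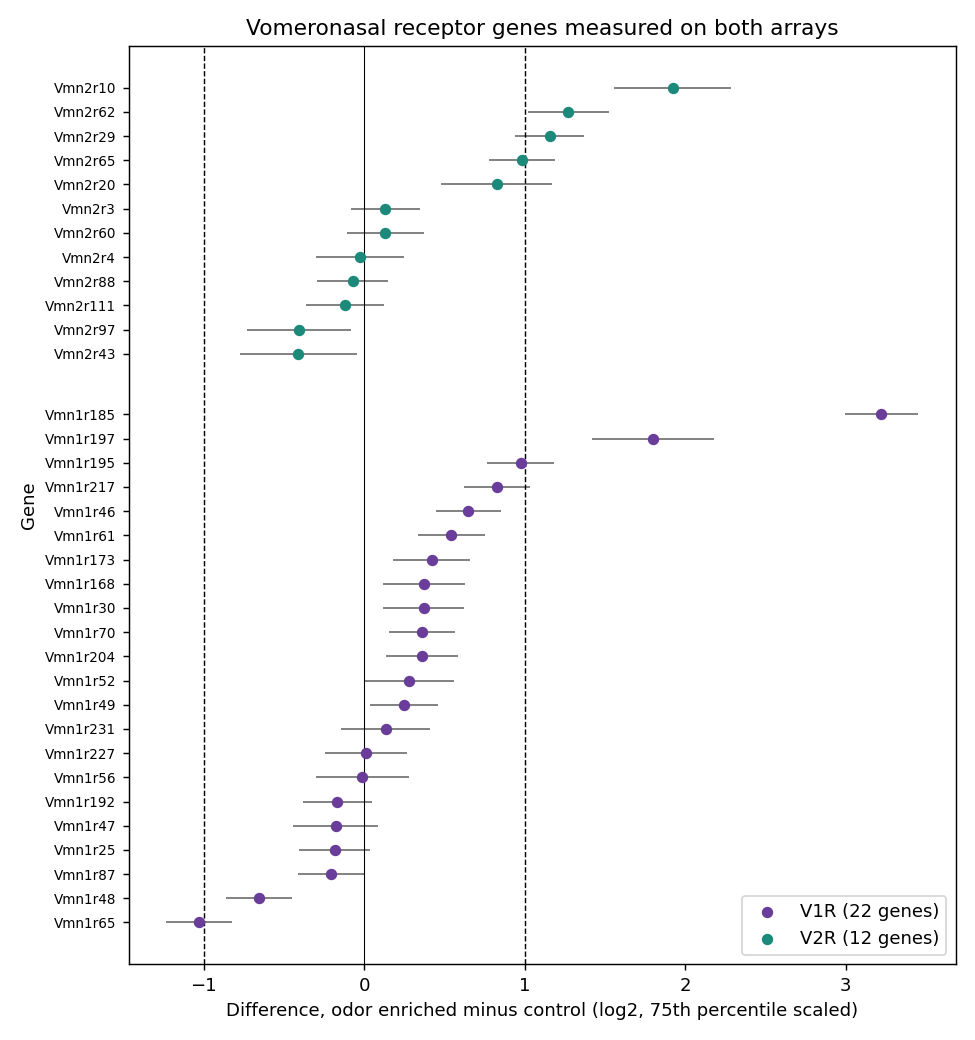
Difference between odor enriched and control signal (x axis, log2 after 75th percentile scaling) for each V1R (purple) and V2R (green) gene detected on both arrays; horizontal lines are the error from the scanner software's spot errors, not a spread between mice, and dashed lines mark 2-fold. Vmn1r185 stands apart at 3.22. On the spike-in scale every point lies lower by the same 1.91, and 20 of the 22 positive differences, all but those of Vmn1r185 and Vmn2r10, are negative.

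Some genes were detected on 1 array alone, so their fold is a lower bound, set against the lowest detected signal of the other array. Vmn2r42 read 3.57 in the control, where it was not well above background, and 25.9 ± 3.24 in the odor enriched bulb. There it was higher by at least 6.62-fold. Its probe also lists Vmn2r32, Vmn2r48 and Vmn2r49, so the transcript behind the signal is uncertain. Vmn1r76 read 2.66 and 9.48, higher by at least 2.42-fold in the odor enriched bulb. The higher floor of the odor enriched array makes such bounds larger in this direction than in the other. The bounds given here and below hold for the main scaling only and were not computed again under the alternative settings. In log2 they were 2.73 for Vmn2r42 and 1.28 for Vmn1r76. On the spike-in scale, where the median of all genes was -1.91, both would be smaller and that of Vmn1r76 would turn negative.

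Among the genes detected in the control alone the bounds were small. Vmn1r199 had log2 signals of 3.46 and 2.10, at least 1.11-fold lower with odor enrichment. The bounds leave out the spot errors, and its bound is 0.15 in log2 against an error of 0.60 for its difference. With the series matrix values, where the median of all genes was 0.33, the bound of Vmn1r199 would turn negative. Vmn2r57 stood at 3.90 and 2.55 (at least 1.51-fold lower) and Vmn2r123 at 3.61 and 2.25 (at least 1.23-fold lower). For the other genes in this state the control signal, once scaled to the 75th percentile, lay below the lowest detected signal of the odor enriched array on the same scale, which leaves no bound. Unscaled, 3 of them (Vmn1r1, Vmn1r216 and Vmn1r209) lay above it. Among them Vmn1r1 stood at 3.25 and 0.91, Vmn1r216 at 3.21 and 2.84, and Vmn1r81 at 2.40 and 0.75. Vmn1r230 stood at 2.45 and 0.82 and Vmn1r214 at 2.83 and 2.78, so some of these genes had nearly equal signals. Vmn1r63, named here after its values were seen, stood at 2.41 and 2.97. Its signal was thus higher in the odor enriched bulb, where it was not well above background. Among V2R genes Vmn2r35 stood at 2.61 and 2.71, Vmn2r85 at 2.54 and 2.64 and Vmn2r33 at 2.39 and 0.88.

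The family C receptors, Vmn2r1 to Vmn2r7, are V2R genes expressed broadly in basal vomeronasal neurons together with a second V2R. Of the 5 on the array, Vmn2r4 was detected in both bulbs at 4.23 and 3.89, a difference of -0.03. Vmn2r3 was detected in both by 1 of its probes, with 5.49 and 5.31 and a difference of 0.13. Vmn2r7 was detected in the control alone (2.53 and 2.10) by 1 of its 2 probes, and Vmn2r1 and Vmn2r5 in neither. The Vmn2r5 probe stood at 0.04 and 0.94.

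The Vmn2r3 probes abut on chromosome 3 but gave opposite results. The undetected one (chr3:64063154-64063213, minus strand) stood at -0.03 and 0.72. The detected one (chr3:64063214-64063273, minus strand) shares 55 bases with the Vmn2r4 probe (chr3:64192879-64192938, minus strand), apart from 5 mismatches. In the lines below capitals mark those mismatches, and the undetected probe has none marked because it was not compared.
Vmn2r3, undetected: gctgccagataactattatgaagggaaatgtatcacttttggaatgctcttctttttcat
Vmn2r3, detected: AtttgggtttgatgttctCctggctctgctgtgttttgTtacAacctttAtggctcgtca
Vmn2r4: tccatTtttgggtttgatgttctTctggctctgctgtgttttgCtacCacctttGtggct

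Probes of 1 gene often disagreed on detection. Of 22 member genes with more than 1 probe, 11 had none detected in the control, 10 had some and 1 had all (Vmn2r88). In the odor enriched bulb 14 had none, 8 had some and 0 had all. Vmn1r61, for example, had 1 probe at 5.75 in the control bulb and 5.98 in the odor enriched bulb (0.54) and another at the floor. Vmn2r60 had 1 probe at 4.62 and 4.44, and another at -0.06 and 0.71.

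**Figure D4:**
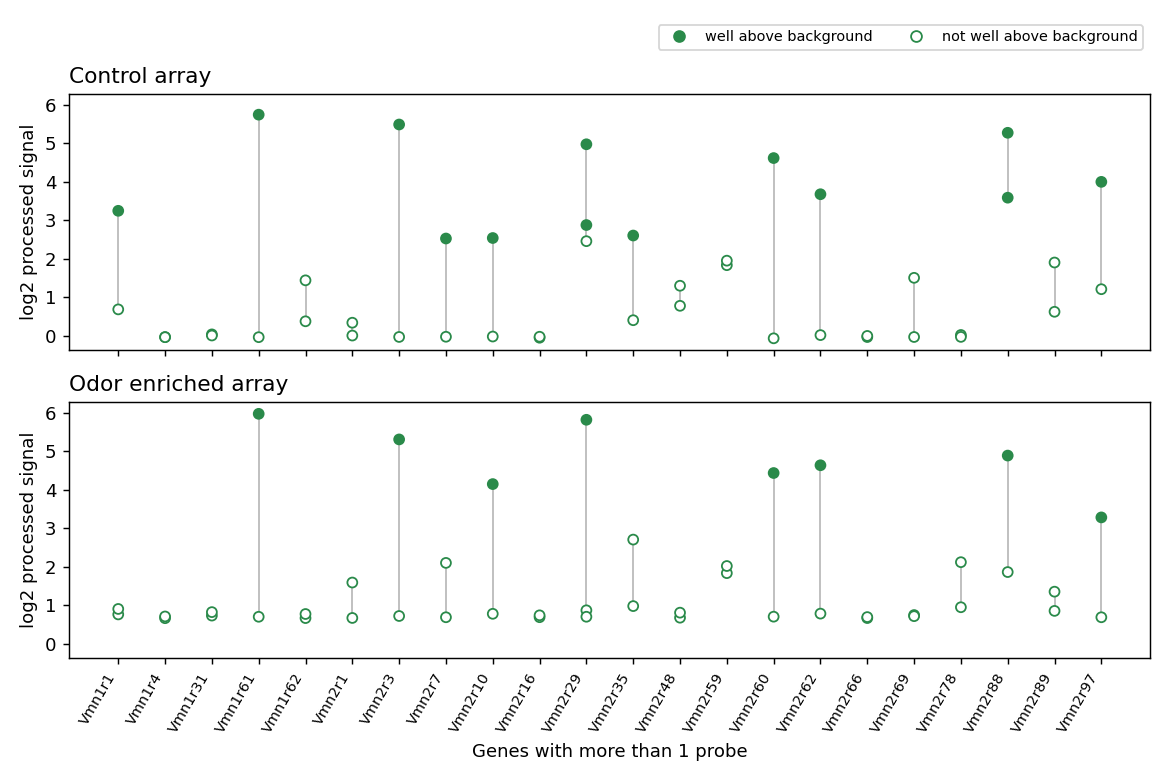
Log2 processed signal of every probe of the 22 member genes with more than 1 probe on the control array (top) and odor enriched array (bottom); filled circles are well above background and a line joins the probes of a gene. In the control 10 genes have at least 1 probe well above background and at least 1 that is not.

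Similar probe sequences were compared next, over at least 50 aligned bases with at least 90% identity. They formed 35 pairs among 55 probes, 20 of V1R and 35 of V2R genes. In 27 pairs neither probe was detected, in 2 pairs both were detected in the same bulbs, and in 6 pairs 1 was detected and the other was not. The Vmn2r88 probe (chr14:52038205-52038264, plus strand) and the Vmn2r123 probe, on unplaced sequence, share 57 bases with 2 mismatches. Their signals were close, at 3.59 and 3.61 in the control and 1.87 and 2.25 in the odor enriched bulb. Capitals mark the mismatches.
Vmn2r88: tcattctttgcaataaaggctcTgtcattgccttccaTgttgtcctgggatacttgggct
Vmn2r123: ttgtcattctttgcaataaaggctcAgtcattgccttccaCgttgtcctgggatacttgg

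The Vmn1r49 probe (chr6:90022802-90022861, minus strand) and the Vmn1r50 probe (chr6:90057420-90057479, plus strand) align over 60 bases with 6 mismatches, again in capitals. The first was detected in both bulbs, at 5.58 and 5.52, and the second in neither, at 2.01 and 0.70.
Vmn1r49: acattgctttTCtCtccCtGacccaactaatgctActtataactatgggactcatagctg
Vmn1r50: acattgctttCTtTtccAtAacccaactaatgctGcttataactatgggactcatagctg

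Some probes also list another gene's transcript, and their detection is given beside that of probes of a single gene. In the control, 7 of 35 such V1R probes (20%) and 24 of 135 single-gene V1R probes (17.8%) were detected. For V2R the counts were 8 of 36 (22.2%) and 12 of 76 (15.8%). In the odor enriched bulb they were 5 and 18 for V1R, and 5 and 8 for V2R. In all, 7 member probes, some of them among those just counted, share a run of 25 bases with a probe under a name outside the families, among them Vmn1r199 with the pseudogene Vmn1r207-ps.

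Detection moved with the base composition of the probe in both families. Among probes with at most 21 G and C bases of 60, 2 of 60 V1R probes (3.33%) and 4 of 44 V2R probes (9.09%) were detected in the control. With 22 to 24 such bases the shares were 15% and 14.3%, and with 25 to 27 they were 38.3% (18 of 47) and 30% (12 of 40). Odorant receptor probes ran from 9.96% through 26.0% to 46.8% over the same classes. All probes ran from 65.2% to 72.4%. In the odor enriched bulb the V1R shares were 3.33%, 8.33% and 31.9% and the V2R shares 2.27%, 10.7% and 22.5%. The V1R probes detected in both bulbs had a median of 26 G and C bases and the undetected ones 22, while for V2R these were 25.5 and 22. The part of base composition in the detected set was not tested.

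**Figure D5:**
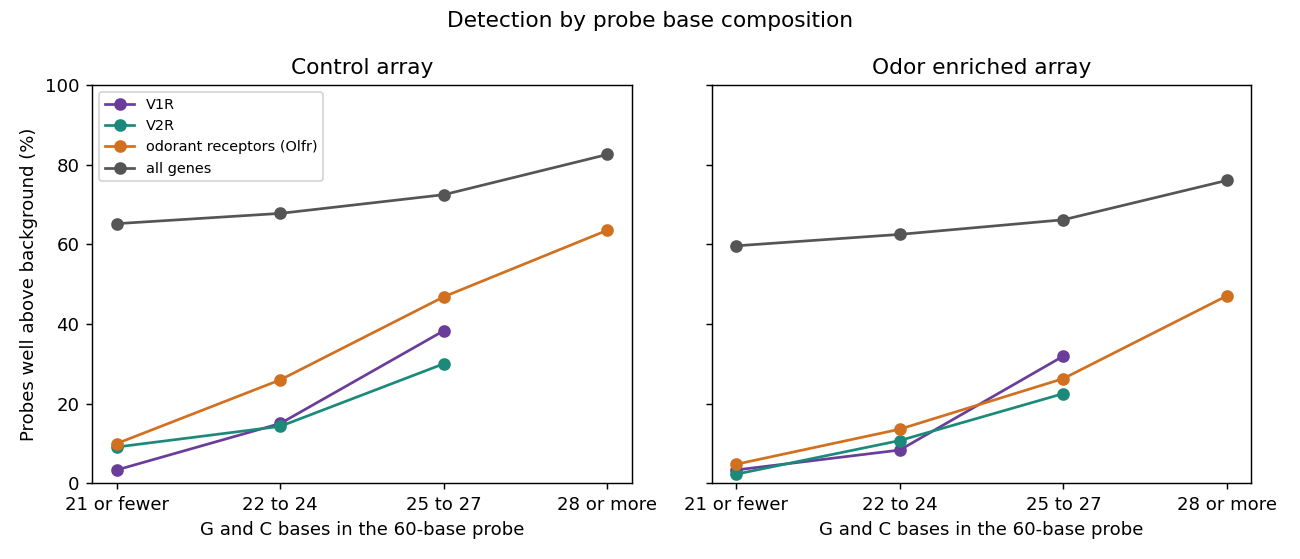
Percent of probes well above background (y axis) by the number of G and C bases in the probe (x axis) for V1R, V2R, odorant receptors and all genes, on the control (left) and odor enriched (right) array; classes with fewer than 10 probes are not drawn. From the lowest class to that of 25 to 27 bases the V1R share in the control goes from 3.33% to 38.3%, and that of all genes from 65.2% to 72.4%.

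Detected members were spread over most clusters of the families, where a cluster is a run of member probes less than 1 Mb apart. On chromosome 13 (22180246 to 23341803) 9 of 33 V1R genes were detected in the control bulb and 5 in the odor enriched bulb. On chromosome 17 (20556964 to 21451850) these were 3 and 2 of 14. The chromosome 7 clusters at 5098480 to 5959414, 10859760 to 13805576 and 21003686 to 24840710 showed 4 and 3 of 11, 3 and 3 of 23, and 3 and 2 of 29 V1R genes. At the low end, the chromosome 6 cluster at 66502187 to 66755210 showed 0 of 8 in either bulb, and that at 56907340 to 58422696 showed 2 of 28 in each.

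Among V2R clusters, chromosome 7 at 7166152 to 10744412 showed 4 of 13 genes in the control bulb and 3 in the odor enriched bulb. Its cluster at 48655180 to 50019989 showed 3 and 2 of 6, and the family C cluster of chromosome 3 showed 3 and 2 of 5. Chromosome 17 at 17871008 to 20710857 showed 1 of 18 in each bulb, Vmn2r97. The clusters on chromosome 5 and chromosome 6 each showed 1 of 7 in each bulb. Vmn2r116, the receptor of the peptide pheromone ESP1, lies in another chromosome 17 cluster and was not detected, at -0.01 and 0.71; it is named here after its values were seen.

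Genes of vomeronasal signal transduction and axon targeting were mostly detected, although many also serve other neurons. Of 24 genes listed, 23 were on the array under their name, 22 were detected in the control bulb and 21 in the odor enriched bulb. Over all genes 71.8% and 65.6% were detected. No probe named Trpc2, the transduction channel of vomeronasal neurons, was analysed here. Gnai2, the V1R-coupled G protein, stood at 13.56 and 13.48 on its brightest probe. It differed by 0.02 over 2 probes that ran from -0.19 to 0.23. Gnao1, the V2R-coupled G protein, differed by -0.39 over 4 probes that ran from -1.57 to 0.65. Gng8, a G protein subunit of vomeronasal and immature olfactory neurons, stood at 9.28 and 8.70 (-0.27).

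Of the 21 genes measured in both bulbs 2 were higher, the axon guidance receptor Nrp2 (1.51) and the antigen-presentation subunit B2m (2.19). Lower were 4, the olfactory neuron genes Omp (-2.68), Gng13 (-1.58), Ano2 (-1.84) and Rtp2 (-1.72). Of all genes measured in both bulbs 11.5% were higher and 5.51% lower. The list's median was -0.23, and all genes had 0.002. Rtp1, which carries odorant receptors to the membrane, was detected in the control alone (3.99 and 0.90), and the transcription factor gene of basal vomeronasal neurons, Tfap2e, in neither.

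Other receptor and partner genes of vomeronasal neurons were rarely detected. Of 15 formyl peptide receptor and H2-Mv genes on the array, 4 were detected in the control bulb and 3 in the odor enriched bulb. The shares of all genes were 71.8% and 65.6%. Fpr1 (0.05) and Fpr2 (0.44), which are also receptors of immune cells, were detected in both, and Fpr-rs6 in the control alone (3.09 and 2.36). H2-M11, a class Ib histocompatibility gene, was higher in the odor enriched bulb, with 4.28 and 6.75 and a difference of 2.78. The other 11, which include every listed H2-M10 gene, were detected in neither.

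The markers of other cell types moved as follows, and their part in the member differences was not tested. Of 4 markers of mature olfactory sensory neurons 3 were lower, with a median of -1.44, and of 14 main olfactory transduction genes measured in both bulbs 6 were lower and 0 higher, with a median of -0.96. Of 4 ensheathing glia markers 3 were lower (median -1.66). All 4 T and NK cell markers were higher (median 5.10), as were 2 of 3 endothelial ones (median 1.09). Among all genes measured in both bulbs 11.5% were higher and 5.51% lower. On the spike-in scale every difference is lower by the same 1.91. Of 7 nasal gland and epithelium markers on the array 5 were detected in the control bulb and 2 in the odor enriched bulb. For all genes these shares were 71.8% and 65.6%. Bpifb3, Bpifb4 and Cyp2g1 were detected in the control alone, and Lcn3 and Obp2a in neither. All listed markers of bulb projection, dopaminergic and granule neurons were detected, with medians of -0.36, -0.49 and -0.06. Of the 5 projection markers 1 was higher (Tbx21, 3.11) and 2 were lower (Slc17a7, -1.67, and Cdhr1, -1.40). Of the 3 dopaminergic markers 1 was lower (Slc6a3, -1.13), and of the 5 granule markers 0 passed 2-fold.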

How the data were processed

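Per the file headers, Agilent Feature Extraction 11.5.1.1 produced each deposited spot signal, an intensity after background subtraction and detrending, not normalized between arrays. The deposited flags (well above background, positive and significant, outlier) were used as given. The deposited series matrix holds log2 values, which for member probes equalled the log2 signal minus a constant (14.5 in the control, 13.8 in the odor enriched sample, within 0.07); its origin and centring stay unknown, and the matrix medians were -9.48 and -8.98.

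Of 62976 spots on an array 59305 carried no control; 73.7% (control) and 67.6% (odor enriched) of these passed the well-above-background flag. Spots flagged as outliers (716 and 339) were left out and 0 were saturated. Those of Vmn1r2, Vmn1r66 and Vmn1r201 were among them, which left 162 of 165 V1R genes. A probe was detected where most of its usable spots carried the flag, a gene where any probe did. A gene's difference was the mean over probes detected on both arrays.

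The repeat spots of 300 probes gave an SD of 0.046 for the difference, and probes of 1 gene one of 0.62 (8121 genes). Both arrays were on 1 slide, and 0 member spots lay in the 85 spots of bright or dim patches. Named were, per family, the 6 brightest genes, the 5 highest and 5 lowest differences, those detected on 1 array (at most 6 a side), family C, genes with several probes and those at the detection limit, and the measured members of the lists. The members and lists were chosen with earlier results of these data known. Of 282 probes 271 carried the RefSeq name of GRCm38.p6 (used for names only) and 11 were unmatched. Scaling, averaging and the 2-fold counts were tested on simulated data in which both arrays had the same detection flags. Detection on 1 array, unequal floors, the bounds and the spike-in scale were not tested that way. Python 3.11.15 with numpy 2.4.6, pandas 2.3.3, matplotlib 3.10.9 and scipy 1.17.1 were used, with limma 3.58.1 under R 4.3.3.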

Additional observations from a re-analysis of the deposited data

How the results depend on the processing

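No paired analysis was possible because the groups hold 1 array each with no pairing in the labels, and none could be left out. The median differences (0.32 for V1R, 0.13 for V2R) were 0.15 and -0.039 with median centring, 0.40 and 0.21 with the 75th percentile of detected probes, 0.13 and -0.044 with quantile normalization, 0.25 and 0.077 with cyclic loess, 0.26 and 0.23 with normexp, 0.65 and 0.46 with the series matrix values, -1.59 and -1.78 on the E1A spike-in scale, 0.25 and -0.025 with probes detected on either array, and 0.999 and 1.02 with no filter. Counts of genes higher (2 V1R, 3 V2R) were 5 and 5 at 1.5-fold, 1 V2R at 3-fold, 1 and 0 with normexp, 4 and 5 with the matrix, 1 and 0 on the spike-in scale, and 81 and 53 with no filter. Counts lower (1 V1R, 0 V2R) were 2 V1R at 1.5-fold, 0 V1R at 3-fold and with detected-probe percentile, quantile, loess or matrix values, 19 and 8 on the spike-in scale, 6 and 3 with either-array probes, and 7 and 5 with no filter. With the positive-and-significant flag 87 V1R genes were detected in the control, 57 in the odor enriched bulb, 34 in the control alone and 4 in the other alone, and for V2R 46, 34, 16 and 4. When every probe of a gene had to be detected, V2R had 10 and 6. The spike-in scale lowered every difference by 1.91, so that 20 of 22 positive member differences turned negative; among those past 2-fold Vmn1r197 was -0.11, Vmn2r29 -0.75 and Vmn2r62 -0.64. Vmn2r29 was -0.35 with either-array probes and -0.66 with no filter. With both of these settings Vmn2r88 went from -0.07 to -0.74. The cause of these shifts was not tested, except that normexp adds an offset of 50 and no filter keeps values at the arrays' unequal floors. Over all genes the median moved by -0.17 with median centring (2124 higher, 2025 lower, against 2718 and 1304), 0.33 with the matrix (4415 and 577) and -1.91 on the spike-in scale (306 and 20587). Keeping outlier spots, leaving out patches and using the brightest probe left the member medians and counts within these limits. At this signal, most members lay at the floor, where an absence of RNA was not detectable.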

Other observations

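Smaller receptor families were detected at shares between those of the vomeronasal and odorant receptors or near them. Of 13 trace amine-associated receptor genes, the chemoreceptors for volatile amines, the control bulb showed 5 and the odor enriched bulb 3. Of 38 taste receptor genes 8 and 5 were detected. None of the genes measured in both bulbs in these families differed by 2-fold, with medians of 0.52 over 3 and 0.28 over 5 genes. The 4 vomeronasal receptor pseudogenes named Vmn1r-ps or Vmn2r-ps followed by a number were detected in neither bulb. Pseudogenes named in another style, such as Vmn1r207-ps, were not counted.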
